A study of Rattus norvegicus with 3 samples.

Results

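The nuclei described here were those of the rat heart in which 6 neutrophil and inflammatory monocyte transcripts (S100a8, S100a9, Il1b, Csf3r, Mmp8 and Retnlg) together reached a set minimum. A nucleus was taken when these genes together held at least 4 unique molecular identifiers (UMIs, counted RNA molecules) and at least 0.4% of its UMIs. It could hold at most 1 UMI of the macrophage genes Cd163 and Mrc1, at most 1 of the fibroblast genes Dcn, Pdgfra and Bicc1, at most 1 of the endothelial genes Flt1, Ptprb and Cyyr1, and under 0.4% of UMIs in the cardiomyocyte genes Actn2, Rbm20, Cmya5 and Mlip. They were thus chosen by measured counts of these genes. The rule found 101 of 24664 nuclei, of which 11 came from wild-type (WT), 23 from BMD and 67 from DMD rats. They are called 6-gene nuclei. The levels of the 6 genes are therefore given as a description.

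The nuclei came from the heart apex, with parts of the septum and of both ventricles, of rats 12 months old. BMD rats, a model of Becker muscular dystrophy, carry an in-frame deletion of exons 45 to 47 of Dmd, the dystrophin gene, and DMD rats, a model of Duchenne muscular dystrophy, lack exon 52. Both deletions are carried by every cell of the animal, and WT littermates served as controls. Each genotype had 1 library, and the number of animals behind it is not given in the sources used here, so that genotype, animal and library cannot be told apart and no p-value was computed between genotypes.

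The WT, BMD and DMD libraries held 21609238, 21142346 and 19215994 UMIs, and 9964, 6810 and 7890 nuclei. The shallowest nuclei had 513, 525 and 546 UMIs, and the medians of all nuclei were 1212.5, 1486.5 and 1229 UMIs. Between 12 and 20 barcodes were shared by each pair of libraries, 0 of them those of 6-gene nuclei. Intervals in the text are at 95% and cover counting error only.

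Neutrophils are short-lived white blood cells that leave the bone marrow in large numbers and enter injured tissue. Their cytoplasm is rich in S100a8 and S100a9, the subunits of calprotectin, and their granules hold antimicrobial proteins and proteases that are made in successive stages of maturation, the earliest of them in the marrow. Inflammatory monocytes share many of these transcripts, and then also express Csf1r, the receptor for the growth factor of monocytes and macrophages. Type I interferons act on such cells through a complex of factors that holds Stat2 and Irf9 and binds a response element in the promoters of antiviral genes such as Ifit3, Oas1a and Isg15.

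Both names for these nuclei were checked against their genes. Lyz2 (lysozyme) or Slfn4, which the rule did not use and which neutrophils and monocytes both express, was seen in all 11 WT nuclei, all 23 from BMD and 62 of 67 from DMD. Cxcr2, the neutrophil chemokine receptor, was seen in 1, 4 and 17. Of genes more typical of monocytes and macrophages than of neutrophils, Csf1r had 2 UMIs in the WT, 1 in the BMD and 3 in the DMD sum, the monocyte scavenger receptor gene Cd68 had 1, 0 and 1, and Cd14 was at 0 in all 3 libraries. Any of Csf1r, F13a1, Cd68 and Cd14 was seen in 9 of 101 nuclei. These were 3 of 11 in WT, 1 of 23 in BMD and 5 of 67 in DMD. Resident macrophages of the same libraries, taken as nuclei with at least 3 UMIs of Cd163 and Mrc1 and at most 1 of the 6 genes, held 734 counts per 1000000 UMIs (CPM) of Csf1r in WT, 746 in BMD and 750 in DMD. The wider monocyte list of 26 genes, many of which neutrophils also express, was not low in sum. It held 51, 183 and 340 UMIs in WT, BMD and DMD, and its log2 ratio over resident macrophages was -0.11 (-0.54 to 0.29), 0.89 (0.66 to 1.12) and 0.13 (-0.06 to 0.31). Only 1, 4 and 6 of its genes had at least 10 UMIs in WT, BMD and DMD. Most of the BMD and DMD sums came from the adaptor genes Tyrobp and Fcer1g, and gene by gene the list went both ways (below). The sum thus does not tell the names apart. Csf1r, F13a1, Cd68 and Cd14 were seen in few nuclei of BMD and DMD and in 3 of the 11 of WT. The nuclei were not divided between the names. All 8 nuclei with neither S100a8 nor S100a9 held Il1b, the inflammatory cytokine interleukin-1 beta. The rule made this likely, since they had to reach 4 UMIs from Il1b, Csf3r, Mmp8 and Retnlg. Of these 8 nuclei, the 3 from WT held a monocyte-defining gene.

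The share of 6-gene nuclei was lowest in WT and highest in DMD. They made up 0.110% of the WT library (exact Clopper-Pearson interval 0.0551 to 0.197), 0.338% of the BMD library (0.214 to 0.506) and 0.849% of the DMD library (0.659 to 1.08). The DMD share was 0.739 percentage points above WT (Newcombe interval 0.539 to 0.972) and 0.511 points above BMD (0.265 to 0.765), and the BMD share was 0.227 points above WT (0.0849 to 0.403). These intervals did not include 0, but they contain no variation between animals. Resident macrophages were in another order, at 1.70% in WT, 2.95% in BMD and 1.67% in DMD. There were 6.51 6-gene nuclei for every 100 resident macrophages in WT, 11.4 in BMD and 50.8 in DMD.

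The size of the difference between WT and BMD depended on how deep a barcode had to be to count as a nucleus. The 6-gene nuclei were shallow, with medians of 769, 699 and 704 UMIs in WT, BMD and DMD, and 92 of 101 had under 1000 UMIs. Below the depth of the shallowest nucleus and down to 200 UMIs, 46 further WT, 22 BMD and 96 DMD barcodes met the rule. Counting every barcode with at least 200 UMIs, the WT, BMD and DMD shares were 0.471%, 0.573% and 1.61%. The BMD share then differed from WT by 0.101 points, with an interval of -0.0991 to 0.322 that includes 0. The DMD share was then 3.41 times the WT share, against 7.69 times (4.04 to 16.1) at the main depth. With every nucleus thinned to 500 UMIs and a minimum of 2, BMD was 0.147 points above WT (-0.00823 to 0.329), which also includes 0. WT was lowest and DMD highest at each of these depths.

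**Figure D1:**
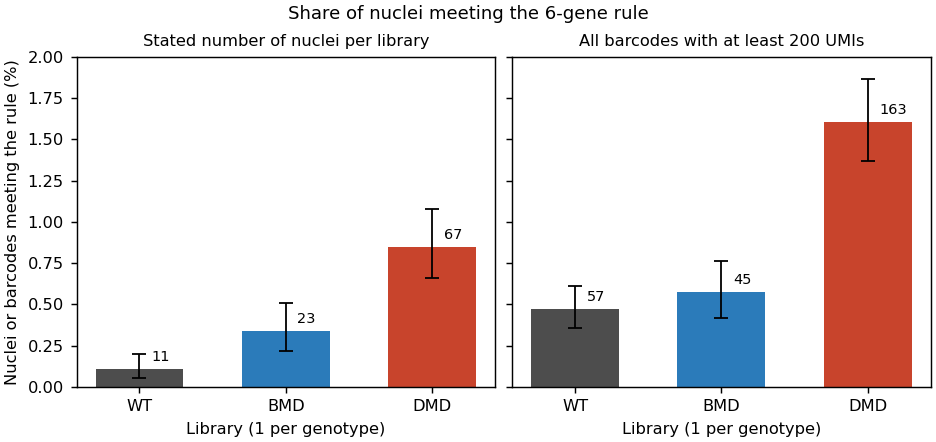
Share of nuclei (percent, y axis) that met the 6-gene rule in each library, at the number of nuclei used in the text (left) and over all barcodes with at least 200 UMIs (right), with exact Clopper-Pearson 95% intervals as error bars and the number of nuclei beside each bar. On the left the shares go from 0.110% in WT to 0.849% in DMD, and on the right WT and BMD, at 0.471% and 0.573%, have overlapping intervals below DMD.

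RNA free in the suspension differed between the libraries in the same genes. In barcodes with at most 50 UMIs, which hold no nucleus, the 6 genes made up 637 CPM in WT, 760 in BMD and 4622 in DMD. A droplet as deep as the median 6-gene nucleus and filled with free RNA alone would hold 0.490 UMIs of these genes in WT, 0.531 in BMD and 3.25 in DMD, against a minimum of 4. In DMD, 8 of the 67 nuclei lay at exactly 4 UMIs and 12 nuclei just outside the rule had 3, while in WT 2 had 4 and 4 had 3, and in BMD there were 0 of either. The highest numbers were far above the minimum, with 38 DMD, 20 BMD and 5 WT nuclei at 10 UMIs or more. Lyz2 and Slfn4, which the rule did not use and whose free RNA would give 0.663 UMIs in DMD, had a median of 10 UMIs per 6-gene nucleus there, 21 in BMD and 6 in WT. The 5 DMD nuclei without Lyz2 and Slfn4 had a median of 4 rule UMIs and at most 6. With these 5 left out, the DMD share was 0.786%. The 8 DMD nuclei at exactly 4 UMIs all had over 5% mitochondrial UMIs. They held 3 to 16 UMIs of a list of cardiomyocyte genes, against a DMD median of 2. With a minimum of 6 rule UMIs, 53 DMD nuclei were left, and the shares were 0.0803% (WT), 0.338% (BMD) and 0.672% (DMD). How many nuclei near the minimum met the rule through free RNA was not tested.

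**Figure D2:**
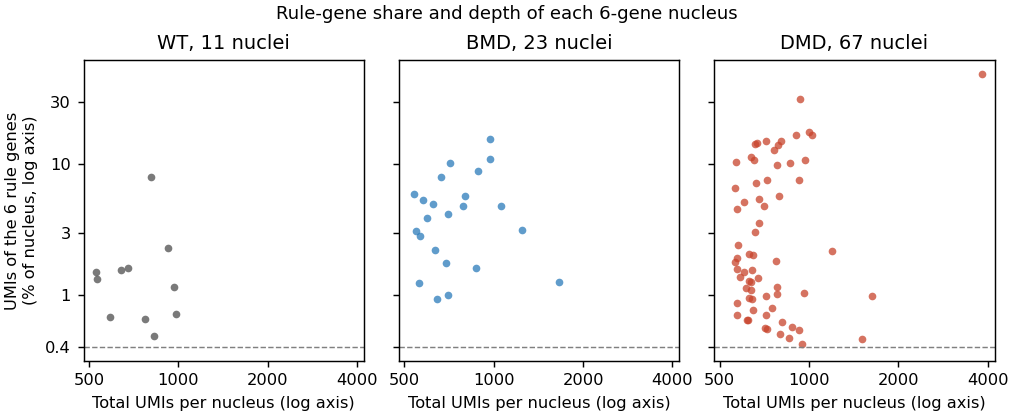
UMIs of the 6 genes as percent of a nucleus (y axis) against its total UMIs (x axis), both on log axes, with 1 point for each 6-gene nucleus in 3 panels by library and a dashed line at the minimum of 0.4%. Most points lie under 1000 UMIs, and 1 DMD nucleus stands apart at 3820 UMIs and 49.2%.

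The amount of S100a8 and S100a9 in the DMD sum depended on few nuclei. S100a8 (ENSRNOG00000011557) had 37, 200 and 1574 UMIs in WT, BMD and DMD, which was 4490, 11112 and 29456 CPM of the summed 6-gene nuclei. S100a9 (ENSRNOG00000011483) had 83, 583 and 2599 UMIs, or 10073, 32392 and 48638 CPM. A single DMD nucleus held 1865 of these S100 molecules, and the next held 264. Without that nucleus, S100a8 and S100a9 together fell from 78093 to 46517 CPM in DMD, against 43505 CPM in BMD and 14563 CPM in WT. The low WT level was not found in the shallow barcodes that met the rule, whose WT, BMD and DMD sums were at 35296, 29523 and 39636 CPM. The median nucleus held 7 (WT), 26 (BMD) and 9 (DMD) of these UMIs, with highest values of 61, 149 and 1865. Both genes were part of the rule, so these medians depend on the nuclei let in near its minimum. At 4 and at 5 rule UMIs there were 8 and 6 nuclei in DMD, 2 and 1 in WT, and 0 and 0 in BMD. No comparison of the typical nucleus between libraries was drawn from the medians. Both S100 genes were found in 78 of 101 nuclei.

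The other rule genes did not share one order. Il1b (ENSRNOG00000004649) was at 2549 CPM in WT (21 UMIs), 4167 in BMD (75 UMIs) and 2002 in DMD (107 UMIs), and was seen in 5 of 11, 18 of 23 and 40 of 67 nuclei. Csf3r, the receptor for the growth factor G-CSF that drives neutrophil production, was at 1092, 1556 and 1404 CPM, with overlapping intervals. Mmp8, the collagenase of neutrophil granules, had 3, 12 and 72 UMIs, or 364, 667 and 1347 CPM. Retnlg, a resistin-like gene of rodent neutrophils, was at 0 in the 11 WT and 23 BMD nuclei and had 81 UMIs in 11 of the DMD nuclei (1516 CPM). With a floor of 3 counts over the group, the Retnlg level of DMD was at least 9.09-fold higher than that of BMD and at least 4.16-fold higher than that of WT. In the shallow barcodes that met the rule it was seen in every library, with 1, 3 and 19 UMIs (61.7, 323 and 472 CPM), and the BMD and DMD intervals overlapped.

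Among transcripts outside the rule, most of those on the neutrophil list stood above and most of those of tissue macrophages below the level in resident macrophages of the same library. The difference was read as at least 2-fold on CPM plus 10, for genes with at least 20 UMIs over both. Over all genes in DMD, 15.8% were higher in 6-gene nuclei by this measure and 39% were lower. In BMD the background was 13.7% higher and 45.5% lower, and in WT 14.9% higher and 42.6% lower. Of the further neutrophil genes, 20 of 22 were higher in DMD, with a median log2 difference of 3.47 against -0.63 over all genes, 10 of 12 in BMD and 6 of 9 in WT. Of the macrophage genes, which include the complement genes C1qa and C1qb and the scavenger receptor gene Stab1, with Cd163 and Mrc1 left out because the rule used them, 14 of 15 were lower in DMD, 16 of 16 in BMD and 15 of 16 in WT. The limit on Cd163 and Mrc1 also bears on the macrophage genes that go with them. The rule genes were required in 6-gene nuclei and limited in resident macrophages. This bears in the same way on the neutrophil genes that go with the rule genes. The neutrophil counts are thus not an independent test of the name. The monocyte list went both ways, with 5 of 13 genes higher and 8 lower in DMD, 6 of 15 higher and 7 lower in BMD, and 5 of 14 higher and 7 lower in WT. Lst1, Aif1 and Tyrobp were among the higher and F13a1 and Csf1r among the lower in every library. For Csf1r in WT, the interval of the 6-gene nuclei includes the macrophage level.

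The 6 myeloid transcripts described next were found in all 3 libraries and were highest in BMD. Lyz2 (ENSRNOG00000005825) was at 4490 CPM in the WT, 12501 in the BMD and 5895 in the DMD 6-gene nuclei, against 418 CPM in DMD resident macrophages. Slfn4 (ENSRNOG00000057092), a myeloid Schlafen gene, was at 4126, 17058 and 7804 CPM, against 590 in DMD and 1743 in BMD resident macrophages. Both were lower in DMD than in BMD by more than counting error, with log2 ratios of -1.08 (-1.34 to -0.83) for Lyz2 and -1.13 (-1.34 to -0.91) for Slfn4. Lrg1, a secreted glycoprotein of neutrophils, was at 1092, 3723 and 2059 CPM, and Srgn, the proteoglycan that packs granule proteins, at 728, 2667 and 1404 CPM. Tyrobp and Fcer1g, adaptors of activating receptors on myeloid cells and members of the monocyte list, followed the same order, at 1456, 4334 and 3107 CPM for Tyrobp and 364, 2389 and 1366 CPM for Fcer1g.

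The chemokine receptor genes Cxcr2 and Ccr1 had intervals that overlapped between the libraries. Cxcr2 had 1, 4 and 22 UMIs in WT, BMD and DMD (121, 222 and 412 CPM) and 0 UMIs in the resident macrophages of DMD. Ccr1, a receptor for chemokines of the CC type, was at 607, 667 and 580 CPM. By role, the DMD nuclei were higher than resident macrophages in 3 of 5 measured chemotactic receptors, namely Cxcr2, Ccr1 and Csf3r. The difference in Csf3r was set by the choice of both classes, which used it. The DMD nuclei were also higher in 4 of 6 adhesion genes (among them the integrin genes Itgb2 and Itgal). Over all genes, 15.8% were higher and 39% lower by this measure. Among innate sensors 4 of 5 were higher, namely Nlrp3, Nlrp12, Clec4d and Clec7a, and Tlr4, the receptor for bacterial lipopolysaccharide, was lower. Clec4d, a C-type lectin receptor for fungal and mycobacterial sugars, was at 728, 945 and 1011 CPM. Of the subunits of the NADPH oxidase, which makes the oxidative burst, 4 of 5 were higher and Cybb was lower, with 4, 0 and 5 UMIs in the 3 libraries.

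**Figure D3:**
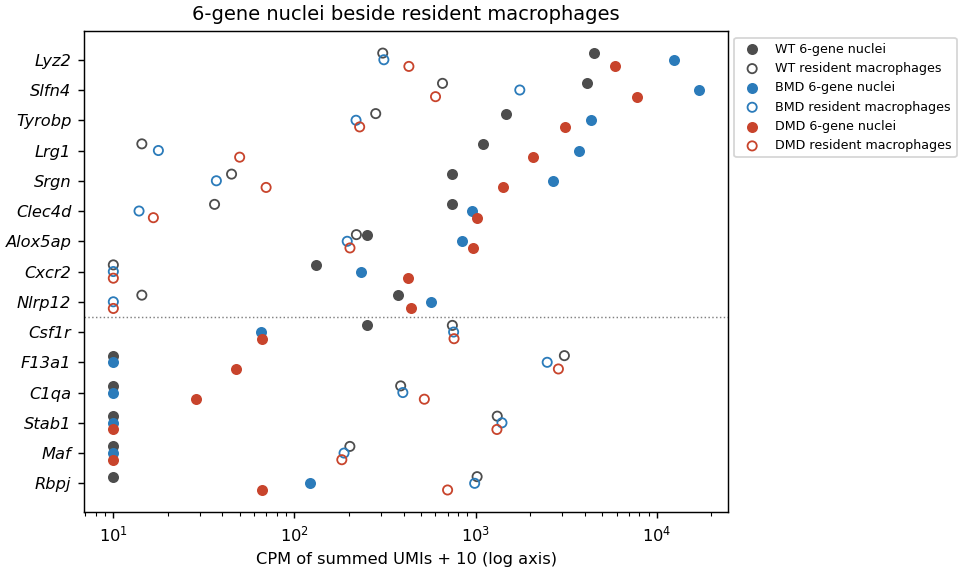
CPM of summed UMIs plus 10 (log x axis) of 15 genes in 6-gene nuclei (filled points) and in resident macrophages (open points), coloured by library, with 9 neutrophil and myeloid genes over the dotted line and 6 macrophage or monocyte genes under it. The filled points lie to the right of the open points of the same library for all 9 upper genes and to the left for all 6 lower ones. The 15 genes were picked for display and do not stand for their lists. Tyrobp is on the monocyte list, whose higher genes Lst1 and Aif1 are not shown. Tlr4 and Cybb, which were lower in DMD, are not shown either.

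Several lists of other cells were near 0. The primary granule genes of marrow precursors, such as Mpo and Elane, had 0, 0 and 1 UMIs in the WT, BMD and DMD sums, and cell division genes had 0, 1 and 2. Dendritic cell genes had 0, 0 and 2 UMIs, and platelet genes 0, 1 and 3. The erythroid list, which holds the haemoglobin genes of red blood cells, was not near 0. It had 0, 15 and 40 UMIs, which was 833 CPM in BMD and 749 CPM in DMD, against 42.5 and 19.9 CPM in resident macrophages and 377 and 328 CPM in free RNA. In WT 0 of 8240 UMIs were seen, for which the exact Poisson interval reaches up to 448 CPM. Genes of the tissue around them were found at low levels, with 1335, 3556 and 4828 CPM for the cardiomyocyte list, which in free RNA was at 18901, 23228 and 15062 CPM. The fibroblast list had 728, 722 and 3481 CPM. From 9 cardiomyocyte genes, the free RNA in the 6-gene nuclei was estimated at 6.12% (WT), 14.7% (BMD) and 32.3% (DMD) of their summed UMIs. The median nucleus held 1 (WT), 3 (BMD) and 2 UMIs (DMD) of the cardiomyocyte list, and the highest 4, 6 and 16. The DMD percentage thus does not describe the typical DMD nucleus. Over 5% of UMIs were mitochondrial in 4 of the 11 nuclei from WT, 1 of the 23 from BMD and 19 of the 67 from DMD. These were 36.36%, 4.35% and 28.36%, against 11.36%, 11.04% and 16.95% of all nuclei in WT, BMD and DMD. The share was thus above that of the library in WT and DMD and below it in BMD.

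Most molecules of the later granule genes Camp, Ngp and Lcn2 lay in 3 DMD nuclei. Camp, the cathelicidin antimicrobial peptide, and Ngp, neutrophilic granule protein, belong to the granules that neutrophils fill late in the marrow. In the 6-gene nuclei they had 302 UMIs in DMD, against 0 in WT and 1 in BMD. In DMD their level was 5652 CPM (exact Poisson interval 5032 to 6326). Of these, 236, 53 and 8 UMIs lay in 3 nuclei, and 6 DMD nuclei had any. Without the 3 nuclei the DMD level was 105 CPM, from 5 UMIs. All 18 UMIs of Lcn2, the iron-withholding lipocalin of the same granules, lay in the nucleus with 236. Lyz2, on the same list, was instead seen in 60 of 67 DMD nuclei. Outside the 6-gene nuclei, Camp and Ngp were also seen in WT. A WT nucleus that the limits on other classes had set aside held 13 UMIs, and the shallow barcodes that met the rule were at 123 CPM in WT, 0 in BMD and 99.3 in DMD, from 2, 0 and 4 UMIs.

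These 3 nuclei were also those with the most rule UMIs, at 1879, 177 and 294 in the same order, of 3820, 1003 and 932 UMIs in all. Together they held 36 UMIs of Mmp8, 30 of Retnlg and 18 of Lyz2, but 0 of Il1b, 0 of Slfn4 and 1 of Csf3r. The other 64 DMD nuclei held 107 UMIs of Il1b and 417 of Slfn4. In 2 of the 3 nuclei over 5% of UMIs were mitochondrial. Camp and Ngp together were at 19.0 CPM in DMD endothelial nuclei, 97.2 CPM in DMD free RNA and 0 in DMD resident macrophages.

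Interferon-induced transcripts were highest in the BMD nuclei. This list of 18 genes held 10 UMIs in the WT, 224 in the BMD and 172 in the DMD 6-gene nuclei. Its summed level was 12446 CPM in BMD (10869 to 14187), 3219 CPM in DMD (2756 to 3737) and 1214 CPM in WT (582 to 2232), and the log2 ratio of DMD over BMD was -1.95 (-2.25 to -1.66). The excess in BMD was not found to that degree in other nuclei of the BMD library. Resident macrophages held 699 CPM in WT, 985 in BMD and 736 in DMD, endothelial nuclei 1267, 2161 and 1434 CPM, and free RNA 941, 1073 and 1225 CPM.

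Many promoters of the list carry the letters of the interferon response element. Each sequence below gives the 250 bases before the start of a gene that was at least 2-fold lower in DMD than in BMD, from RefSeq on GRCr8 and written 5′ to 3′ on the strand of the gene, with capitals for GAAANNGAAA, the core of that element, or for its reverse complement.
Ifit3, chr1:241527076-241527325, plus strand: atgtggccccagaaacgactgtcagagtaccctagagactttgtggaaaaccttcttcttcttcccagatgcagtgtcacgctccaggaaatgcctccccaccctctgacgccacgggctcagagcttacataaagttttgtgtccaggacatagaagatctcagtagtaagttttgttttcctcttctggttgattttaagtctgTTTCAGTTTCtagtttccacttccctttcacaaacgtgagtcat
Oas1a, chr12:41330216-41330465, plus strand: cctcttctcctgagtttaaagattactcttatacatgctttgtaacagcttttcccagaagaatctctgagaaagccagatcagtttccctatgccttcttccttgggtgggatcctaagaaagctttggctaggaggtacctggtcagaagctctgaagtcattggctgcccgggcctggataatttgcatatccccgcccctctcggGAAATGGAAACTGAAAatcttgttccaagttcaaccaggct
Irf7, chr1:205800024-205800273, minus strand: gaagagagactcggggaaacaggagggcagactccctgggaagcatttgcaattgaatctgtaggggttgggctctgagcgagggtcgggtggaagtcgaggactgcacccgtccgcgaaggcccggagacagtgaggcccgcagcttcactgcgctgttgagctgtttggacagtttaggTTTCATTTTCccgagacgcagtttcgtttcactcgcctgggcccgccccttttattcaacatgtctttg
Gbp2, chr2:234005477-234005726, plus strand: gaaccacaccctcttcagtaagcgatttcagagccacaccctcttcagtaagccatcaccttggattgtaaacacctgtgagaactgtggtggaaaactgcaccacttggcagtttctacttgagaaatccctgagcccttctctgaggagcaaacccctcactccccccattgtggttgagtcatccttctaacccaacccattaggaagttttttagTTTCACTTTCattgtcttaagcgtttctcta
The match nearest to the start ended 35 bases before it in Ifit3, 26 in Oas1a, where 2 matches overlapped, 60 in Irf7 and 22 in Gbp2. On either strand the letters occurred in 10 of the 14 promoters of the list that were matched by symbol and in 3.41% of all 33469 promoters. Every promoter printed here has a match. That of Stat2, also at least 2-fold lower in DMD than in BMD, had 0, and Isg15 was not among the 14. The letters were in 0 of 10 promoters of later granule genes and 0 of 5 of rule genes. TTGCNNAA, letters bound by the C/EBP factors of myeloid cells, occurred in 3 of the 10 later granule promoters (Lcn2, Lyz2 and Ngp), in that of Mmp8, in 0 of the 14 and in 9.22% of all. A match describes the letters and not the binding of a factor.

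The interferon genes with the clearest values were transcription factors and effectors of the response. Stat2 (ENSRNOG00000031081) had 0 (WT), 17 (BMD) and 7 UMIs (DMD), with 945 CPM in BMD and 131 in DMD. Irf7, the factor that amplifies interferon production, had 0, 21 and 6 UMIs (1167 CPM in BMD and 112 in DMD). The BMD level was thus several times that of DMD for both factors among the nuclei. Of the effectors, Gbp2, a guanylate-binding protein that attacks the vacuoles of pathogens, had 0, 30 and 4 UMIs (1667 CPM in BMD and 74.9 in DMD), and Isg15, a ubiquitin-like modifier, had 0, 21 and 12 (1167 and 225 CPM). The effectors Ifit3 and Oas1a, which act on viral RNA and its sensing, differed less, at 1611 CPM in BMD and 749 in DMD for Ifit3 and 945 and 412 CPM for Oas1a. Against the WT sum, in which 0 UMIs were seen and a floor of 3 counts was used, BMD was at least 4.58-fold higher in Gbp2 and at least 3.2-fold higher in Irf7 and in Isg15.

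Counted by gene with CPM plus 100 and at least 20 UMIs over both, 7 of 8 measured interferon genes were at least 2-fold lower in DMD than in BMD, while 9.56% of all 659 genes were lower and 8.65% higher. They include the 4 genes printed above, Isg15 and Stat2. With at least 10 UMIs, 9 of 13 were lower, against 8.52% of all genes, and Ifitm3 (16 UMIs in DMD and 0 in the others) was higher, as were 9.37% of all genes. For BMD over WT, 5 of 5 measured genes were higher, where 33.1% of all 151 genes were higher and 7.95% lower. In resident macrophages 0 of 7 measured interferon genes differed 2-fold between DMD and BMD. Of all genes there, 0.25% were higher and 0.0454% lower in DMD. Adding 100 CPM to every gene shrank such differences, since the whole list summed to only 985 CPM in BMD and 736 CPM in DMD resident macrophages. A 2-fold call was therefore hardly possible there, and no contrast with the counts above was drawn from it.

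The interferon transcripts were spread over many BMD nuclei. Any of them was seen in 22 of 23 BMD, 55 of 67 DMD and 4 of 11 WT nuclei, and 5 UMIs or more in 16, 13 and 1. The median nucleus held 8 UMIs in BMD, 2 in DMD and 0 in WT, and the highest held 38, 13 and 5. A BMD nucleus had a median of 5 different genes of the list and at most 12, and a DMD nucleus a median of 2 and at most 10. The distributions of BMD and DMD overlapped, and the highest DMD nuclei exceeded the BMD median. With each nucleus thinned to 500 UMIs, the list was seen in 91.3% of the BMD (72.0 to 98.9), 64.2% of the DMD (51.5 to 75.5) and 27.3% of the WT 6-gene nuclei (6.02 to 61.0). In resident macrophages, whose median depth was 1191 UMIs in BMD, 1000.5 in DMD and 1227 in WT before thinning, it was seen in 35.8%, 29.5% and 25.4%. Without thinning, 95.7%, 82.1% and 36.4% of the 6-gene nuclei had a UMI of the list.

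**Figure D4:**
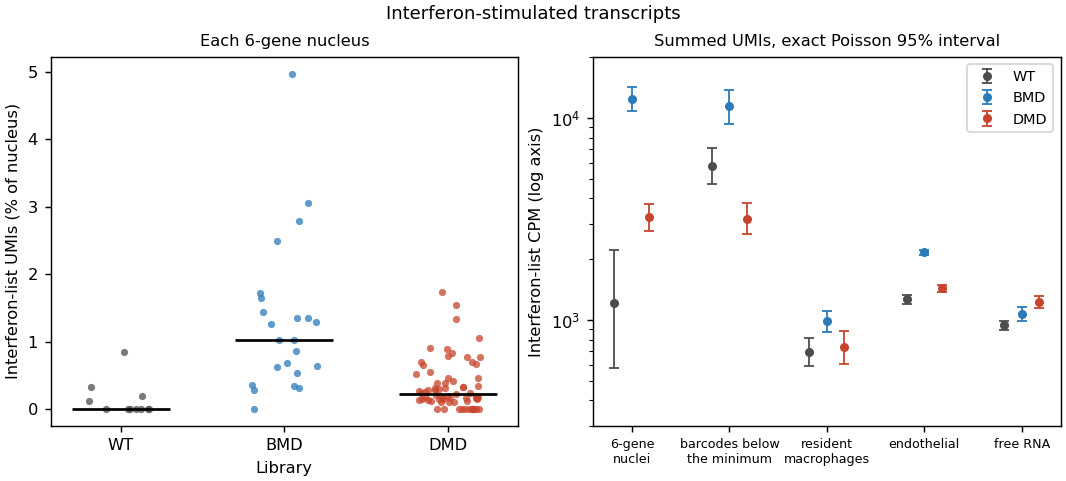
Left, UMIs of the interferon list as percent of all UMIs of each 6-gene nucleus, with 1 point per nucleus and a line at the median of each library. Right, CPM of the summed list (log axis) in 6-gene nuclei, barcodes below the nuclei minimum that met the rule, resident macrophages, endothelial nuclei and free RNA with exact Poisson 95% intervals, where BMD stands highest in the first class at 12446 CPM and the shallow WT barcodes, at 5800 CPM, lie above the WT nuclei.

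The barcodes below the nuclei minimum gave the interferon values of BMD and DMD in molecules that the description above did not use. Their list level was 11421 CPM in BMD (9351 to 13814) and 3177 in DMD (2650 to 3777), and 8 of 10 measured genes were at least 2-fold lower in DMD, against 8.67% of all genes. In WT they held 94 UMIs of the list at 5800 CPM (4687 to 7098), above both the WT nuclei and the DMD barcodes. WT therefore lay below DMD among the nuclei and above it among the shallow barcodes. Stat2 was at 61.7 CPM in the WT, 1077 in the BMD and 24.8 in the DMD shallow barcodes, from 1, 10 and 1 UMIs. Ifit3 was at 1789, 1832 and 620 CPM. Irf7 had 7, 3 and 9 UMIs there, or 432, 323 and 223 CPM with overlapping intervals, so its excess in BMD nuclei was not seen. Of the myeloid transcripts, Slfn4 and Lyz2 were highest in BMD in the shallow barcodes too, at 16352, 28876 and 11317 CPM for Slfn4 and 10860, 13899 and 6701 CPM for Lyz2. The others measured there were highest in WT, at 4813, 2370 and 3226 CPM for Tyrobp, 3887, 3771 and 2184 CPM for Lrg1 and 1913, 1832 and 1539 CPM for Srgn.

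Within DMD, high counts of the granule and of the interferon transcripts did not coincide. The 3 nuclei with most Camp and Ngp held 4, 3 and 0 interferon UMIs, against a DMD median of 2. None of the 3 nuclei with at least 5 UMIs of Camp and Ngp had 5 UMIs of the interferon list. The 13 DMD nuclei with at least 5 interferon UMIs held Il1b in 10 and had a median of 16 rule UMIs, and the other 54 held Il1b in 30 with a median of 10. The 13 nuclei were at 13740 CPM of Slfn4 against 6393 in the 54. They held 8 UMIs of Mmp8 and Retnlg, and the 54 held 145, as raw sums over groups of unlike size. Of the 145, 36 UMIs of Mmp8 and 30 of Retnlg lay in the 3 nuclei with most Camp and Ngp. With 3 nuclei on 1 side, an overlap could hardly have been seen.

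**Figure D5:**
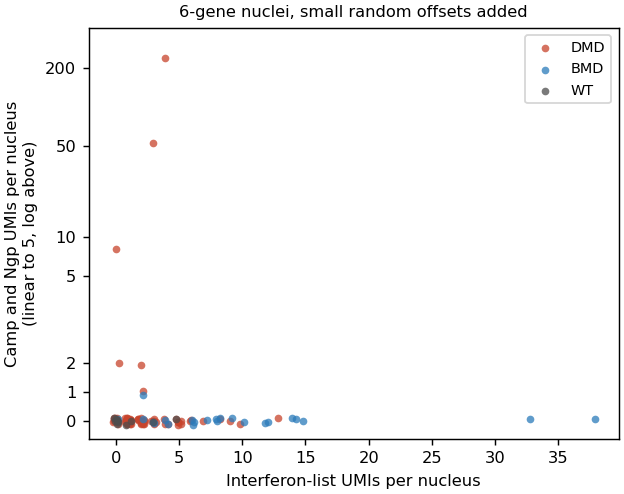
UMIs of Camp and Ngp (y axis, linear to 5 and log above) against UMIs of the interferon list (x axis) for each 6-gene nucleus, coloured by library and with small random offsets. BMD nuclei spread along the x axis up to 38 UMIs, and 3 DMD nuclei stand at 8, 53 and 236 UMIs of Camp and Ngp.

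Of the genes outside all lists, the one furthest above the other DMD nuclei was Ccl6, a chemokine of myeloid cells, at 2901 CPM in DMD 6-gene nuclei and 20.3 CPM in the others, and at 2611 CPM in BMD and 1335 CPM in WT 6-gene nuclei. It was followed by the unnamed gene AABR07034362.2 (1572 CPM in DMD), Gng10, a G protein subunit (2190 CPM), and Gmfg, an actin regulator of blood cells (1628 CPM). Napsa, an aspartic protease, and Tspo, a protein of the outer mitochondrial membrane, were at 898 and 1647 CPM. Over all genes with at least 20 UMIs, 12% were at least 2-fold higher and 30.9% at least 2-fold lower in DMD 6-gene nuclei than in the others. The lowest, among them Col14a1, a collagen of fibroblasts, and the clock gene Per3, had 0 UMIs in DMD 6-gene nuclei. Ifit1bl, an interferon-induced gene outside the list, was at 1214 CPM in WT, 3278 in BMD and 1160 in DMD.

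Between libraries, the genes with the highest DMD level against both others were Camp, Ngp, Retnlg and S100a6, a calcium-binding relative of the calprotectin genes whose log2 ratio of DMD over BMD was 2.78 (1.16 to 5.09). Gsn, Tf, Mgp and Slco3a1 came next. Of these, Gsn (1890 against 1684 CPM), Mgp (1385 against 1363) and Slco3a1 (561 against 555) were at about their level in all other DMD nuclei, and the fibroblast list was 4.82 times the BMD level. The part of free RNA in these 3 genes was not tested. The genes lowest in DMD against both were Pstpip2, Spi1, Lrch1, RT1-A1, Rb1cc1, Eif5, Synj1 and Fyb1. For the last 4 the interval of the ratio to BMD includes 0. Spi1, the transcription factor PU.1 of myeloid cells, was at 971 (WT), 611 (BMD) and 243 CPM (DMD), and RT1-A1, a classical MHC gene whose near copies may share its reads, at 485, 1222 and 206 CPM.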

How the data were processed

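Nuclei of the heart apex were sorted by flow cytometry and sequenced with the 10x Genomics 3′ kit, version 3.1, as the methods state. The paper's results section names a 5′ technology instead. The authors made the deposited counts with Cell Ranger on rn6, as raw UMI counts per gene and barcode, unfiltered. Cell Ranger versions named in the file headers are 6.0.1 for the file listed for WT and 4 for BMD and DMD. The WT counts came from an aggregate of the 3 libraries in which BMD and DMD are thinned to 76.1% and 92.9% of their UMIs, so BMD and DMD were read from their own files, and any effect of the version used for WT cannot be told apart from genotype.

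The 6-gene nuclei, gene lists and comparisons were chosen with earlier results of these data known. The genes named are the 6 rule genes, genes on the lists, the 12 highest and 8 lowest outside the lists by the log2 ratio of DMD 6-gene nuclei to other DMD nuclei (CPM plus 10, at least 20 UMIs, 100 CPM in one), and 8 genes at either end of the rank by DMD over WT or over BMD, whichever log2 ratio lay nearer 0 (CPM plus 100, at least 30 UMIs). Mitochondrial, Y-linked and Xist genes were left out of these ranks. UMIs were summed over nuclei and scaled to CPM of that sum. Intervals at 95% are exact Poisson for sums, exact Clopper-Pearson for shares, Newcombe for differences and exact conditional binomial for ratios (Python 3.11.15, scipy 1.17.1). The floor for a count of 0 is 3 counts. Free RNA is the profile of barcodes with at most 50 UMIs. No doublets were removed in the main setting, and Scrublet (scanpy 1.11.5) called 8.17%, 5.08% and 10.6% of nuclei and 1, 0 and 2 of the 6-gene nuclei in WT, BMD and DMD. On simulated data for DMD over BMD 6-gene nuclei (568 genes, changes of 4-fold), 98% of raised and 100% of lowered genes passed 2-fold, as did 4.75% of unchanged ones. Alternatives were other depths, rule thresholds and genes, thinning to 500 UMIs, mitochondrial and doublet filters, the aggregate, the mean over nuclei and subtraction of free RNA. Some genes on the lists are not reported here. No genome was used, and promoters are those of RefSeq for GRCr8.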

Additional observations from a re-analysis of the deposited data

How the results depend on the processing

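No paired analysis was possible because each genotype has 1 library and the labels carry no replicate numbers. The share of 6-gene nuclei kept the order WT, BMD, DMD under all alternatives run. With nuclei of at least 1000 UMIs it was 0% in WT, 0.0604% in BMD and 0.120% in DMD, with differences of 0.120 points for DMD over WT (0.0298 to 0.261), 0.0604 for BMD over WT (-0.0135 to 0.177) and 0.0593 for DMD over BMD (-0.0744 to 0.206), so the last pair of intervals then includes 0. Thinned to 500 UMIs with a minimum of 2, DMD was at 1.51%, 1.32 points above WT and 1.17 above BMD, while BMD was 1.77 times WT, against 3.06 times in the main setting, with an interval of the difference that includes 0. With S100a8 and S100a9 left out of the sum, the shares were 0.0401%, 0.206% and 0.406%, and DMD was 0.365 points above WT and 0.20 above BMD. Some alternatives were chosen after seeing the data. They were all barcodes with at least 200 UMIs (0.471%, 0.573% and 1.61%, DMD 1.13 points above WT and 1.03 above BMD), no limits on genes of other classes (0.211% in WT and 1.69% in DMD, 1.47 points above WT and 1.29 above BMD), the levels without 1 or 3 named nuclei, and a minimum of 10 UMIs or CPM plus 10 for interferon genes, under which 9 of 13 and 8 of 8 were lower in DMD than in BMD.

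Camp and Ngp in DMD, 5652 CPM in the main setting, were at 1938 as a mean over nuclei, 28591 in nuclei of at least 1000 UMIs, 6405 without nuclei over 5% mitochondrial UMIs, 8298 with free RNA subtracted, 1330 without the nucleus with most rule UMIs and 105 without the 3 nuclei, and in BMD at 0 CPM in nuclei of at least 1000 UMIs. S100a8 and S100a9 in DMD, 78093 CPM, were under the same settings at 51128, 216054, 96896, 113233, 46517 and 39638, and at 81423 without Scrublet doublets. In BMD, 43505 CPM became 25531 in nuclei of at least 1000 UMIs and 50860 with free RNA subtracted, and in WT 14563 became 22395 without nuclei over 5% mitochondrial UMIs. The interferon list in DMD was at 1670 in nuclei of at least 1000 UMIs, 3933 without those over 5% mitochondrial UMIs and 4169 with free RNA subtracted, where BMD was at 14399. Of 327 single values of a gene in a library, 4 moved beyond their interval without Scrublet doublets, 9 as a mean over nuclei, 64 under the mitochondrial limit and 71 with free RNA subtracted. The causes were not tested. With 0 WT 6-gene nuclei of at least 1000 UMIs, that setting gave no WT level. The main limits are 1 library per genotype, 11 nuclei in WT and depth, since the floor of 3 counts in the 8240 UMIs of WT is 364 CPM.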

Other observations

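The limits on genes of other classes set aside 10 WT, 4 BMD and 66 DMD nuclei that met the 6-gene minimum. In DMD, 46 of the 66 were over the fibroblast limit, 32 of them over that limit alone, 21 over the endothelial, 10 over the cardiomyocyte and 5 over the macrophage limit. They held a median of 9 rule UMIs of 1057 UMIs in DMD, and 66 of 66 had S100a8 or S100a9 while 25 had Il1b. Csf3r was at 236 CPM in these DMD nuclei, Lyz2 at 1817 and Slfn4 at 1755. In BMD the 4 nuclei were at 10451 CPM of Lyz2 and 9290 of Slfn4. The interferon list was again highest in BMD, at 7693 CPM, against 902 CPM in WT and 1683 CPM in DMD.

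In all nuclei, a UMI of any of the 6 genes was seen in 4.12%, 5.36% and 21.2% of the WT, BMD and DMD libraries. In endothelial nuclei, S100a8 or S100a9 had a UMI in 2.88%, 4.61% and 17.2%, at median depths of 852, 1165 and 1020 UMIs.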
